A study of Mus musculus with 2 samples.

Results

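The 37 genes described here encode the kinases, adaptors, enzymes and restraining proteins that act just inside the T cell receptor. They were taken by name from a list of T cell receptor signalling genes and matched by their GENCODE M21 gene identifier. All 37 were found among the 55536 annotated genes of the deposited gene tables. The rule itself uses names alone.

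The RNA came from mouse regulatory T cells, a CD4 T cell lineage that holds immune reactions in check and is specified by Foxp3, a transcription factor. The labels give 1 male mouse aged 4 months of the strain Foxp3CreERT2 x Rosa26YFP, in which the Foxp3 gene drives a tamoxifen-dependent Cre recombinase and the Rosa26 locus carries a yellow fluorescent reporter. They describe primary cells with an origin in a bone marrow haematopoietic cell and name no sort, gate or tamoxifen treatment. The polyA RNA was sequenced as 2 technical libraries of 1 biological sample, so there is 1 group, no condition is compared, and every spread below is technical.

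The T cell receptor has no kinase of its own. Src family kinases phosphorylate its CD3 chains, Zap70 binds the phosphorylated chains, and Zap70 then phosphorylates the adaptors Lat and SLP-76 (the product of Lcp2), which hold together enzymes that start calcium, Ras and NF-kappaB signalling. Other proteins of the same layer restrain these steps, and in regulatory T cells receptor signals are known to be needed for suppressive function.

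Library 1 held 15821875 estimated counts on annotated genes and library 2 held 16153671. A count of 0 allows up to 3 counts, which is 0.190 CPM (scaled to the library total) in library 1 and 0.186 CPM in library 2, for counting error only. The 4 regulatory T cell markers (Foxp3, Il2ra, Ctla4, Ikzf2) and the 4 T cell markers (Cd3d, Cd3e, Cd3g, Cd4) were all expressed, with Foxp3 at 43.2 and 36.2 TPM. Of 6 CD8 T and NK cell markers, 5 were expressed and their summed level was 118 and 123 TPM, most of it from Nkg7 at 78.3 and 78.9 TPM. Gzmb was at 25.2 and 25.9 TPM, Cd8b1 at 10.8 and 14.3, Cd8a at 2.18 and 1.82 and Klrb1c at 1.97 and 1.85, and Ncr1 had 1 and 0 counts. Of 6 B cell markers only Cd79b, at 33.2 and 33.3 TPM, reached 1 TPM in both. The 7 myeloid markers summed to 5.70 and 9.25 TPM, and of 4 megakaryocyte and platelet markers 3 had no count in either library. The part of such cells in the levels below was not tested, and in bulk RNA fewer cells of a type and less RNA per cell cannot be told apart.

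All 37 genes were expressed, that is, at 1 TPM or more in both libraries, where 24.3% of annotated genes and 46.5% of the 22028 protein-coding genes were. TPM is a level scaled to transcript length and to the library total and can be compared between genes. The median of the 37 genes was 69.7 TPM, against 18.5 TPM over all expressed protein-coding genes, and 30 of the 37 lay above that value. Levels spanned 255-fold, from Lck at 1151 TPM to Sos1 at 4.52 TPM. The 5 highest genes (Lck, Lat, Fyb, Skap1 and Lcp2) held 54.2% of the 5971 TPM of the whole set. The genes lie on 15 chromosomes.

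**Figure D1:**
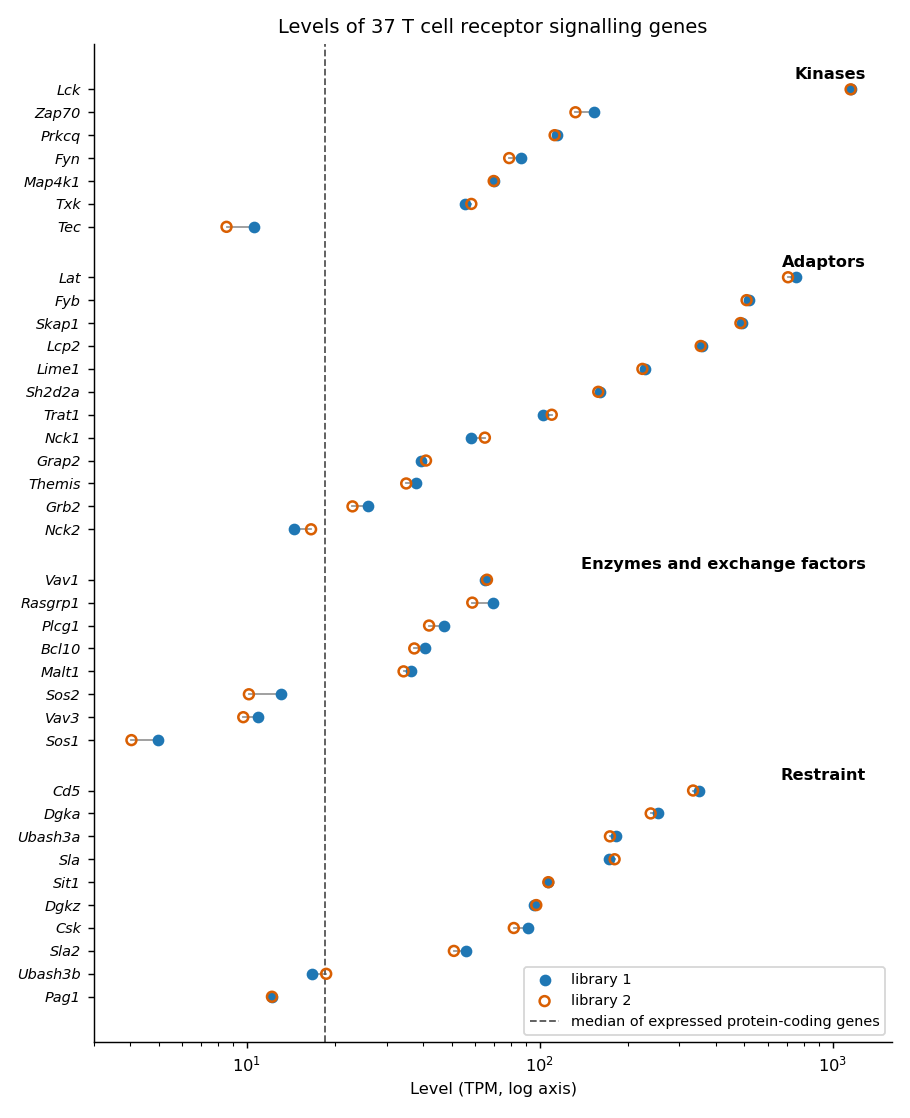
Level of each of the 37 genes in library 1 (filled) and library 2 (open), in TPM on a log axis, grouped by role. The dashed line is the median of expressed protein-coding genes, 18.5 TPM. Lck stands far above the other kinases, and no gene of the group named enzymes and exchange factors reaches 100 TPM.

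The 7 kinase genes had a median of 82.4 TPM and the widest spread of any role, 120-fold between Lck and Tec. Lck (ENSMUSG00000000409.14, mm10 chromosome 4, 129548344 to 129573641, minus strand), the Src family kinase that rides on CD4 and CD8, had 1151 TPM in library 1 and 1152 in library 2, or 1151 ± 0.47 (SD, n = 2). That level was higher than in 99.0% of expressed protein-coding genes. Zap70 (ENSMUSG00000026117.10, chromosome 1, 36761798 to 36782818, plus strand) had 153 and 132 TPM, or 143 ± 14.4. Both libraries placed Zap70 second among the kinases and far below Lck. Prkcq, the protein kinase C that links the receptor to NF-kappaB, had 115 and 112 TPM, and its mean fell to 69.9 TPM with protein-coding transcripts alone. Fyn (ENSMUSG00000019843.14, chromosome 10, 39368855 to 39565381, plus strand), the other Src family kinase of the set, had 86.1 and 78.7 TPM. Map4k1, which encodes the kinase HPK1 that restrains SLP-76, was almost equal in both libraries at 69.8 and 69.7 TPM. The Tec family kinase genes Txk and Tec stood at 55.7 and 58.4 TPM and at 10.6 and 8.53 TPM.

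Lck has a distal start, known as the one used in mature T cells, and a proximal start, known from thymocytes. Reads were assigned to transcripts by the authors' model, so the following shares are estimates. Of the 3 Lck transcripts that reach the 3' end, the one from the distal start (Lck-202) took 19453 counts in library 1 and 20296 in library 2. The transcripts from the proximal start (Lck-201 and Lck-208) together took 2142 and 2487 counts. The distal share was thus 90.1% and 89.1%, and both libraries gave nearly the same split. A short coding transcript, Lck-206, also begins at the proximal start and took 315 and 370 counts. With Lck-206 included, the proximal share of all protein-coding Lck transcripts was 11.2% and 12.3% of the counts and 17.5% and 19.3% of the TPM. Of windows of 50 bases, 124 are found in Lck-202 alone, 161 in Lck-201 alone and 5 in Lck-208 alone. A window held by more than 1 proximal transcript is not in these numbers. They therefore do not show how much sequence separates the 2 starts. The bases ahead of both RefSeq starts are shown because they carry the 2 alternative promoters, each 5′ to 3′ on the minus strand of mm10, at chr4:129573642-129573891 for the distal start and chr4:129558373-129558622 for the proximal one. Capitals mark a match to the core letters TGTGGT of the RUNX motif in the distal promoter and to GGGCGG, the GC box core, in the proximal promoter.
Lck distal: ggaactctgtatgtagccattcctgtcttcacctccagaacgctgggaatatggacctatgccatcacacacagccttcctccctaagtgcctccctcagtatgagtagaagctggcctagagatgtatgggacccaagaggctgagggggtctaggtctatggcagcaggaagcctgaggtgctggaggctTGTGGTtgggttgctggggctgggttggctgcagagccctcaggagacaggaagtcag
Lck proximal: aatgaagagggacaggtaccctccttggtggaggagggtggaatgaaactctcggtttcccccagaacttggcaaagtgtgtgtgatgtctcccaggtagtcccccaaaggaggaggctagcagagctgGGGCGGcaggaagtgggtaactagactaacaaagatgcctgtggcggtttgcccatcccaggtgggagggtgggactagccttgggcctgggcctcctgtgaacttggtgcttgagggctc
The GENCODE start of Lck-201 lies inside the proximal window. The RUNX letters lie at bases -58 to -53 from the distal start and the GC box letters at -121 to -116 from the proximal start. Over the same 250 bases of all 32851 RefSeq promoters (GRCm38.p6), and counting both strands, 14.0% held TGTGGT and 32.7% held GGGCGG. The TATA box core TATAAA, the ETS core CCGGAA and the box CCAAT were also searched on both strands, and none of these letters occurred in either Lck window. A match is a stretch of letters and was not tested as a binding site.

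Fyn is known for a pair of mutually exclusive exons within its kinase coding region, one used in the form of T cells (FynT) and one in the form found in brain (FynB). The FynT exon has 156 bases (52 codons, chr10:39529919-39530074, plus strand) and the FynB exon 165 bases (55 codons, chr10:39529437-39529601). Transcripts with the FynT exon took 1197 counts in library 1 and 1362 in library 2. The transcript with the FynB exon (Fyn-202) took 421 and 470 counts. Among transcripts with either exon, the FynT exon therefore had 74.0% and 74.4% of the counts, with almost no gap between libraries. A further transcript, Fyn-206, joins the flanking exons and skips both, and was given 753 and 514 counts. Its share of the counts over the 3 classes was 31.8% in library 1 and 21.9% in library 2, the least stable of the 3. By TPM Fyn-206 was the leading Fyn transcript in library 1 and Fyn-201 in library 2. The exons are shown because they define the forms, with the exon in capitals and 15 bases of each neighbouring exon in lower case, from the mm10 transcripts of GENCODE M21. In the Fyn-206 junction the capitals mark the first 30 bases after both exons are skipped.
Fyn-201: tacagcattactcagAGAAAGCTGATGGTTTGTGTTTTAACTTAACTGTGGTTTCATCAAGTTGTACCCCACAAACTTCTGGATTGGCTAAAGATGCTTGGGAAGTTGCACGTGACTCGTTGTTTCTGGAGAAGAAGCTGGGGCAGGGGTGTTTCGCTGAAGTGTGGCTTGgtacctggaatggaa
Fyn-202: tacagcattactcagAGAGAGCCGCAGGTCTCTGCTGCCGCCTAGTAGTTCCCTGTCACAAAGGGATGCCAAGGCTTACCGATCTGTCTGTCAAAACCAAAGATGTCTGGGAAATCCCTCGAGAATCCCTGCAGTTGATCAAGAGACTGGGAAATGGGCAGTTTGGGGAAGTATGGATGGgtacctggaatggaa
Fyn-206: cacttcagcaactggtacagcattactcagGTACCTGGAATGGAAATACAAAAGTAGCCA
The exons share 87 identical bases over 165 aligned columns (52.7%), of which 9 columns hold a gap. The Fyn-206 junction rests on 48 windows of 50 bases that no other Fyn transcript holds.

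**Figure D2:**
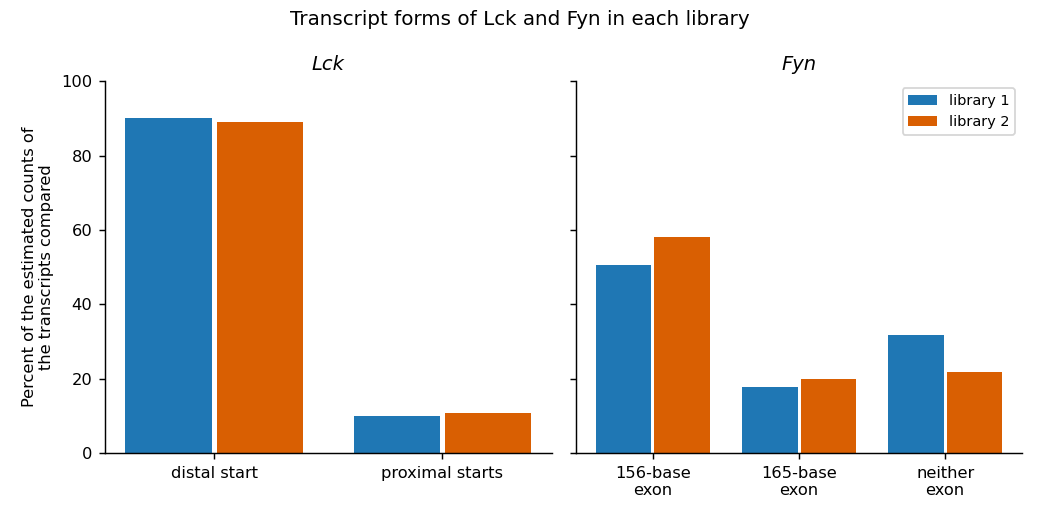
Percent of estimated counts by transcript form in library 1 and library 2, for Lck among the 3 transcripts that reach the 3' end and for Fyn among transcripts with or without the alternative exons. The distal start holds 90.1% and 89.1% for Lck, and the FynT exon 50.5% and 58.1% for Fyn, where the form with neither exon moves from 31.8% to 21.9%.

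The 12 genes grouped here as adaptors had the highest median of any role, 133 TPM, and 7 of them exceeded 100 TPM. The roles were set after values were seen, and the adaptor genes Sla, Sla2, Sit1 and Pag1 were placed under restraint. The order of the adaptor and restraint medians depends on that choice. Lat (ENSMUSG00000030742.7, chromosome 7, 126363824 to 126369570, minus strand), the membrane scaffold phosphorylated by Zap70, had 749 and 704 TPM, or 727 ± 31.6 (SD, n = 2). Lcp2 (ENSMUSG00000002699.13, chromosome 11, 34046920 to 34092295, plus strand), which encodes its cytosolic partner SLP-76, had 358 and 354 TPM. Lat was the higher of the pair in both libraries. Fyb and Skap1 encode ADAP and its binding partner SKAP55, which couple the receptor to integrin adhesion. Fyb (ENSMUSG00000022148.16, chromosome 15, 6522853 to 6663313, plus strand) had 519 and 508 TPM. Skap1 (ENSMUSG00000057058.16, chromosome 11, 96464593 to 96759130, plus strand) had 491 and 484 TPM, just below Fyb in both libraries. With protein-coding transcripts alone that order reversed, with means of 438 TPM for Skap1 and 397 TPM for Fyb.

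Sh2d2a, which encodes the Lck-binding adaptor TSAd, had 160.1 and 158 TPM. Trat1, which encodes the receptor-associated transmembrane adaptor TRIM, had 103 and 109.9 TPM. Lime1, a transmembrane adaptor that binds Lck, had 229 and 224 TPM. The Lime1 level is uncertain: 86.0% of its 50-base windows also occur in transcripts of Zgpat, a gene on the same strand that overlaps 92.5% of its exonic bases. No other gene of the set shared more than 10% of its windows, and 17 shared none. The adaptors that recruit exchange factors and actin regulators were lower. Nck1 and Nck2, which link SLP-76 to the cytoskeleton, had 58.3 and 65.0 TPM and 14.5 and 16.6 TPM. Grap2, which encodes Gads, the bridge between Lat and SLP-76, had 39.2 and 40.9 TPM. Grb2, the adaptor that carries Sos to Lat, had 26.0 and 23.0 TPM. Themis, a Grb2-binding protein known from thymocyte selection, had 37.8 and 35.0 TPM.

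The 8 genes grouped here as enzymes and exchange factors had the lowest median of the roles, 37.2 TPM, and none exceeded 100 TPM. Bcl10, a partner protein of Malt1, was counted in this group. Dgka and Ubash3a, which encode enzymes and exceeded 100 TPM, were placed under restraint. Both the median and this limit depend on that choice, which was made after values were seen. Vav1 (ENSMUSG00000034116.17, chromosome 17, 57279100 to 57328031, plus strand), an exchange factor that acts on the actin cytoskeleton, had 65.1 and 66.1 TPM. Rasgrp1 (ENSMUSG00000027347.18, chromosome 2, 117279993 to 117343001, minus strand), the diacylglycerol-activated exchange factor for Ras, had 69.4 and 58.9 TPM. Plcg1, the phospholipase that makes diacylglycerol and inositol trisphosphate, had 47.1 and 41.9 TPM. Rasgrp1 was the higher of these 3 in library 1 and Vav1 in library 2. Bcl10 and Malt1, partners in the complex that activates NF-kappaB, had 40.6 and 37.3 TPM and 36.4 and 34.3 TPM. With protein-coding transcripts alone their means were 37.1 TPM for Bcl10 and 12.1 TPM for Malt1. Vav3 had 10.9 and 9.73 TPM, with a mean of 5.80 TPM for protein-coding transcripts alone. The Ras exchange factors carried by Grb2 were among the lowest genes of the set, with Sos2 at 13.1 and 10.2 TPM and Sos1 at 4.99 and 4.04 TPM. Rasgrp1 thus exceeded both Sos genes in each library.

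The 10 genes of restraint had a median of 102 TPM, and 5 exceeded 100 TPM. Cd5 (ENSMUSG00000024669.8, chromosome 19, 10717116 to 10739002, minus strand), an inhibitory surface receptor, was the highest with 351 and 334 TPM, or 342 ± 12.0 (SD, n = 2). Dgka (ENSMUSG00000025357.8, chromosome 10, 128720134 to 128744855, minus strand) and Dgkz encode kinases that remove diacylglycerol. Dgka had 253 and 239 TPM and Dgkz 95.5 and 97.4 TPM. Ubash3a and Ubash3b encode the Sts phosphatases, and had 183 and 174 TPM and 16.7 and 18.7 TPM. Sla and Sla2 encode the SLAP adaptors that lower receptor levels, and had 173 and 180.2 TPM and 56.0 and 50.9 TPM. Sit1, a transmembrane adaptor known as a brake on the receptor, had 107 TPM in both libraries. Csk, the kinase that sets the inhibitory phosphate on Lck and Fyn, had 91.3 and 81.6 TPM, while Pag1, the membrane adaptor that recruits Csk, had 12.2 TPM in both. Of the exonic bases of Sla2, 23.6% overlap Rab5if on the opposite strand, and the sources used here do not say whether the counting used strand, so reads of the 2 genes might be mixed.

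In 9 pairs of related genes, the same gene was the higher one in both libraries. Lck exceeded Fyn 13.4-fold in library 1 and 14.6-fold in library 2. Ubash3a exceeded Ubash3b 10.9-fold and 9.30-fold. Vav1 exceeded Vav3 5.96-fold and 6.79-fold, and Txk exceeded Tec 5.25-fold and 6.85-fold. These were the 4 pairs with the widest gap in TPM over all transcripts, an order that changed with protein-coding transcripts alone and in the authors' smaller gene table, which holds whole-number counts on an earlier annotation. Txk and Tec are neighbours on chromosome 5, on the same strand with 2938 bases and no annotated gene between them. Nck1 exceeded Nck2 4.03-fold and 3.92-fold, Sla exceeded Sla2 3.08-fold and 3.54-fold, and Dgka exceeded Dgkz 2.65-fold and 2.46-fold. Sos2 exceeded Sos1 2.62-fold and 2.52-fold, and Grap2 exceeded Grb2 1.51-fold and 1.78-fold, the narrowest gap. Of these 9 pairs, the order of 1 depended on which transcripts were counted. With transcripts annotated as protein coding alone, Sos1 exceeded Sos2, with a log2 ratio of 1.41 in place of -1.36. In that count the log2 ratio of Dgka over Dgkz rose from 1.35 to 4.70, that of Ubash3a over Ubash3b went from 3.33 to 1.79, that of Txk over Tec from 2.58 to 3.56 and that of Vav1 over Vav3 from 2.67 to 3.45. In that smaller table, per length of the longest protein-coding transcript, the log2 ratio of Lck over Fyn was 2.67 in place of 3.80, that of Vav1 over Vav3 4.09, that of Nck1 over Nck2 3.13 in place of 1.99 and that of Sla over Sla2 0.83 in place of 1.72. There Dgka over Dgkz stood at 2.18 and Ubash3a over Ubash3b at 2.02.

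**Figure D3:**
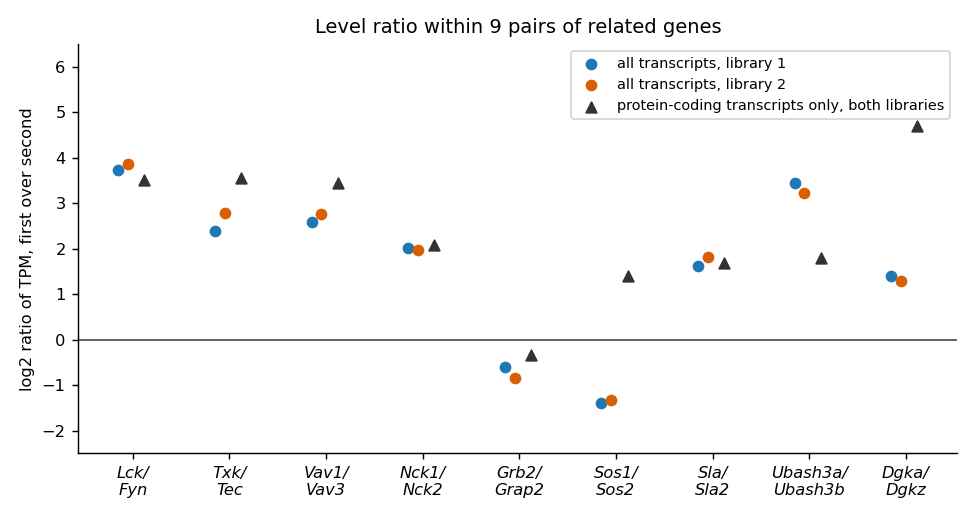
Log2 ratio of TPM within 9 pairs of related genes, first gene over second, for all transcripts in library 1 and library 2 and for protein-coding transcripts alone (triangles, mean of both libraries). The circles of each pair lie on the same side of 0, and the triangle of Sos1 over Sos2 lies on the other side, at 1.41.

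Transcripts fall into annotated classes: those that code for protein, those with a premature stop that marks them for nonsense-mediated decay, those that retain an intron, and processed transcripts without a reading frame. The leading transcript by TPM was protein coding in 32 of the 37 genes (86.5%), against 83.4% of 9458 expressed protein-coding genes with more than 1 transcript. The median protein-coding share of a gene's TPM was 85.6% in the set and 81.5% over those genes. The set thus lay near the background, and its genes differed widely among themselves. In 14 genes protein-coding transcripts held more than 90% of the TPM, among them Fyn, Zap70, Cd5 and Vav1. In 7 genes they held less than 50%: Dgkz (8.67%), Sos2 (13.6%), Trat1 (21.4%), Ubash3a (33.7%), Malt1 (34.3%), Pag1 (37.7%) and Tec (42.1%).

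The leading Dgkz transcript, Dgkz-212, belongs to the decay class and had 37.6% and 39.9% of the TPM and 60.9% and 66.9% of the counts. Only 62 windows of 50 bases set Dgkz-212 apart from the other Dgkz transcripts. For Sos2 the leading transcript, Sos2-202, retains an intron at the 3' end of the gene and had 46.6% and 56.8% of the TPM. The full-length protein-coding Sos2-201 had 2.32 TPM in library 1 and 0.96 in library 2. For Ubash3a the processed transcript Ubash3a-204 led with 41.0% and 36.5% of the TPM. The same transcripts led for these 3 genes when counts were used.

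For Trat1 and Pag1 the leader depended on the measure. The short Trat1-201, a decay transcript of 647 bases, had 78.0% and 79.3% of the TPM and 31.5% and 33.2% of the counts, while the protein-coding Trat1-202 of 4665 bases had 68.5% and 66.8% of the counts. The processed Pag1-202 had 58.0% and 56.9% of the TPM, and the protein-coding Pag1-204 had 82.8% and 81.6% of the counts. TPM divides by length, so a short transcript takes a larger share of TPM than of counts. The same holds within the coding class: Fyb-209, of 434 bases, had 34.2% and 36.9% of the Fyb TPM from 9.97% and 10.6% of its counts. By counts, 34 of the 37 genes were led by a protein-coding transcript (91.9%, against 89.4% of the background genes).

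**Figure D4:**
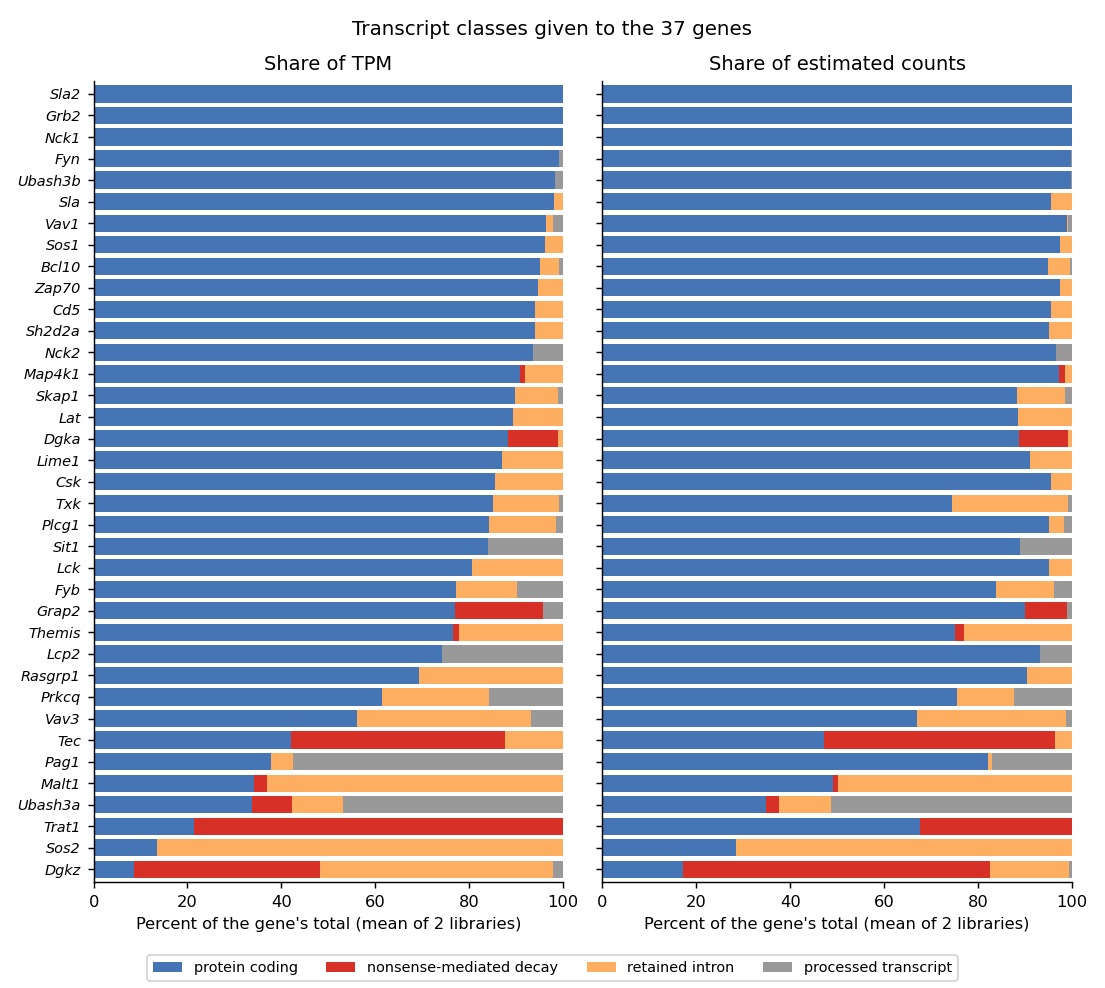
Percent of each gene's TPM (left) and estimated counts (right) by annotated transcript class, as the mean of both libraries, in order of the protein-coding share of TPM. Dgkz, Sos2, Ubash3a, Malt1 and Tec stay below 50% protein coding by both measures, while Trat1 and Pag1 do so by TPM alone.

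The 2 technical libraries give the spread of these levels between libraries only. Levels also moved with the measure used, as given below. The coefficient of variation between libraries was under 10% for 32 of the 37 genes, with a median of 4.26% and a highest value of 17.7% (Sos2). In an exact two-sided binomial test of library 2 against library 1, with Benjamini-Hochberg adjustment over all genes tested, 9 of the 37 genes (24.3%) were called different, where 25.1% of the 17458 genes tested were. This test compares the 2 libraries and not any condition, with no replicate check, and the share of the set is near the background over all genes tested. Among genes whose counts summed to at least 1000, 7 of 33 in the set (21.2%) were called, against 37.4% of all such genes. Of the 9, 5 were higher in library 1, where the background for that direction is 13.2%, and 4 were higher in library 2, where it is 11.9%. No gene of the set differed 1.5-fold, whether called or not, against 21.9% of all genes tested, and 8.8% of all genes tested were both called and 1.5-fold different. These 2 shares include genes with as few as 10 counts in sum. No such share was taken among genes of like count. The median size of the log2 ratio was 0.05 in the set, 0.22 over all genes tested and 0.10 over the 5523 genes of that count.

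The genes called higher in library 1 were Zap70, Rasgrp1, Ubash3a, Sos1 and Sos2. Rasgrp1 had 3397 counts in library 1 and 2972 in library 2, a log2 ratio of library 2 over library 1 of -0.22. Sos2 had 445 and 330 counts, a log2 ratio of -0.46 and the largest difference of the set. Those called higher in library 2 were Lck, Lcp2, Nck1 and Sla. These directions are by count. By TPM, Lcp2 was slightly higher in library 1, at 358 and 354 TPM, and Lck was almost equal, at 1151 and 1152 TPM. Of the 37 genes, 26 had the higher TPM in library 1. Nck1 had 1049 and 1254 counts, a log2 ratio of 0.23, and Lck 23076 and 24297 counts, a log2 ratio of 0.05. With edgeR's exact test, which adds the common variation of 13.0% between libraries to the counting error, none of the 37 genes was called and none had an unadjusted p below 0.05, while 2.10% of all genes tested were called and 9.14% had such a p. That variation was estimated from the same 2 libraries that were then compared. The test could therefore hardly call differences as small as those of the set, and no conclusion is drawn from it.

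**Figure D5:**
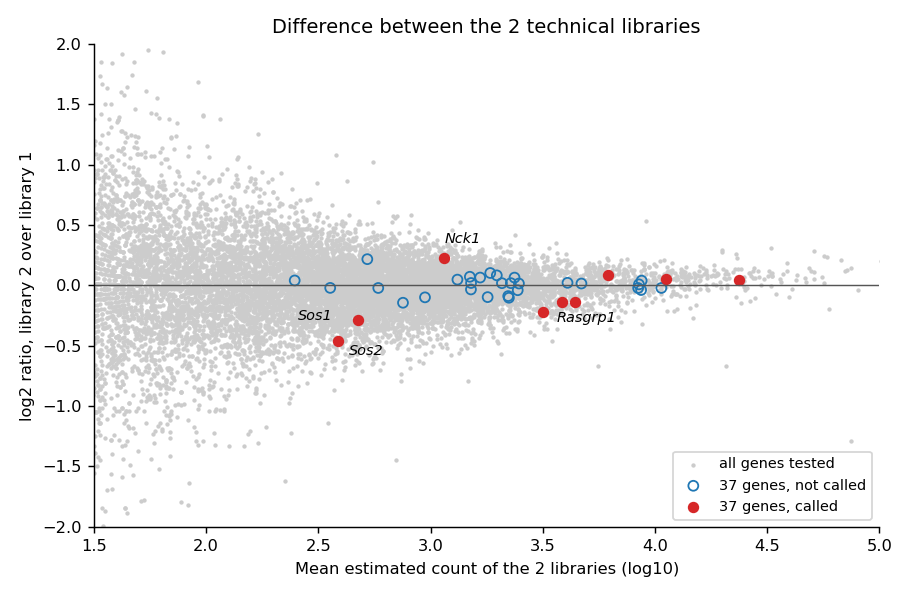
Log2 ratio of library 2 over library 1 against the mean estimated count (log10) for all genes tested (grey) and the 37 genes (circles, filled where called by the binomial test); genes outside the axes are not drawn. The 9 called genes lie between a log2 ratio of -0.46 (Sos2) and 0.23 (Nck1).

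Other genes of the antigen receptor pathway were looked at through a list of 38 that are not in the set. Of these, 37 were expressed, with a median of 25.0 TPM, and 34 reached 5 TPM in both libraries, as 36 of the 37 genes of the set did. The highest was Sh2d1a, which encodes the small adaptor SAP, at 212 and 247 TPM. The lowest was the adaptor gene Shb, with 1 and 5 counts. In the binomial test, 13 of the 37 list genes that could be tested were called higher in library 1 and 5 higher in library 2, or 48.6% in all, against 25.1% of all genes tested and 37.4% of those whose counts summed to at least 1000.

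B cells and myeloid cells use related genes for the same steps, and 22 such counterparts were listed. Of these, 12 were expressed, with a median of 2.94 TPM. Some of the 22 were near 0. Syk, the relative of Zap70, had 2 and 10 counts (0.07 and 0.15 TPM), and Blnk, the B cell adaptor that takes the place of SLP-76, had 1 count in each library. Plcg2, the relative of Plcg1, had no count in either, and Btk, the relative of Tec and Txk, had 0.58 and 0.28 TPM. Others on the list were well expressed. Grap, a relative of Grb2, was the highest at 166 and 164 TPM, above Grb2 and Grap2 in both libraries. Dapp1 had 60.7 and 58.3 TPM. Rasgrp2 had 58.8 and 59.7 TPM, near Rasgrp1, and Prkcb had 47.9 TPM in both, below Prkcq. Lower genes of the list also exceeded 1 TPM in both libraries. Among them were Lyn (5.88 and 4.83 TPM), Fgr (5.69 and 2.77), Lat2 (4.24 and 4.64) and Bank1 (3.73 and 5.27). Some that are not named here lay between Prkcb and Lyn.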

How the data were processed

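Gene and transcript tables on GENCODE M21 (mm10) held, per the file headers, expected counts (estimated counts with no scaling), TPM, FPKM, posterior mean TPM and the percent of gene TPM per transcript, all computed by the authors. A smaller GENCODE M4 gene table held whole-number counts deposited by the authors without a header. No aligner, counting strand or software version is given in the sources used here. The 37 genes, the lists and the rule for named genes (all 37, 9 set pairs, transcripts at 10% or more of gene TPM, extremes of each list) were chosen with earlier results of these data known. The Lck and Fyn forms, roles, motifs and window counts, and the other list genes printed with values, were chosen after values were seen.

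Computed here: means and SD over the 2 libraries; exact binomial tests on rounded estimated counts of genes with at least 10 counts in sum, with library sizes scaled by TMM (edgeR 4.0.16, R 4.3.3), adjusted over all genes at 0.05, with a prior count of 0.5 in log2 ratios; tests used scipy 1.17.1 and were tested on simulated data, in which changed genes of low count were often missed. The p-values of the binomial test weigh the gap between the 2 technical libraries against counting error only, with no spread between libraries estimated. Alternatives were DESeq2 1.42.0 size factors, no count filter, a 1.5-fold minimum, the smaller table, edgeR's exact test, other level measures and single libraries (for the pairs, added after seeing the data). Depth per library was 15821875 and 16153671 estimated counts. Fyn exons were aligned with biopython 1.88. RefSeq promoters (GRCm38.p6) existed for 32 of the 37 genes. Some genes of the lists are not reported here by name.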

Additional observations from a re-analysis of the deposited data

How the results depend on the processing

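No paired analysis was possible because all samples belong to 1 group. The median level of the 37 genes, 69.7 TPM, was 62.9 TPM with posterior mean estimates, 60.1 with protein-coding transcripts alone, 70.4 with TPM rescaled to annotated genes and 55.4 in FPKM, and 69.7 to 69.8 with a single library. The genes expressed numbered 36 with protein-coding transcripts alone, where Sos2 was lost, 36 at 5 TPM, where Sos1 was lost, and 37 in each single library. Of 74 levels of single genes under posterior mean estimates or protein-coding transcripts alone, 53 moved by more than the spread between libraries and 21 by less. Protein-coding transcripts alone took 9 genes over 1.5 times lower. Genes led by a protein-coding transcript numbered 31 to 32 with a single library. The count of 9 genes called between libraries became 0 with a 1.5-fold minimum and 0 with edgeR's exact test. It was 9 with DESeq2 size factors, 9 with no count filter and 6 in the smaller table, 3 of them shared. The share of all genes called, 25.1%, became 13.5% with no filter, 8.80% with a 1.5-fold minimum, 10.5% in the smaller table and 2.10% with edgeR's exact test. The log2 ratio of Sos1 over Sos2 reversed to 1.41 with protein-coding transcripts alone and was -0.05 in the smaller table. The other 8 pairs kept their order under each alternative run. Apart from the settings named, the cause of these shifts was not tested. Tec, with the widest gap in transcript shares, rests on 242 and 254 counts.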

Other observations

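Some transcript shares differed far more between the technical libraries than the levels of their genes did. Over the 89 transcripts with 10% or more of a gene's TPM, the median gap between libraries was 3.34 percentage points and the widest was 40.0. That widest gap belonged to Tec-205, a nonsense-mediated decay transcript with 0 counts in library 1 and 112 in library 2, while Tec as a gene had 242 and 254 counts. Tec-208, of the same class, went the other way, with 77.0 and 13.7 counts. By TPM, Tec-201 led in library 1 and Tec-205 in library 2. For Grb2, Grb2-201 had 161 and 0 counts and Grb2-203 had 162 and 299. Grb2-201 has 21 windows of 50 bases that no other Grb2 transcript holds. These genes were picked after their values were seen.

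RefSeq promoter windows of 250 bases existed for 32 of the 37 genes, as 48 entries. Their median GC content was 57.4%, against 52.4% over all 32851 windows, and the median number of CG pairs was 6 in both. On both strands, GGGCGG was found in 20 of the 48 windows (41.7%, against 32.7% of all), CCAAT in 17 (35.4%, against 33.8%), TGTGGT in 7 (14.6%, against 14.0%), and TATAAA and CCGGAA in 4 each (8.33%, against 12.4% and 12.0%). Windows of 1 gene can overlap, so the entries are not independent.

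The smaller gene table held 3.26% to 74.5% of the estimated count of the larger table for these genes in library 1. Pag1 had the lowest share, with 19 and 28 counts in place of 583 and 586, and Map4k1 the highest, with 1685 and 1623 in place of 2263 and 2171. All 9 genes called between the libraries had the same sign of the log2 ratio in the smaller table, where Sos2 stood at -0.75, past a 1.5-fold difference.

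Across the 5523 genes whose counts summed to at least 1000, longer genes leaned to library 1, with a Spearman correlation of -0.34 between the length of the longest transcript and the log2 ratio of library 2 over library 1. The same value over the 37 genes was 0.003 (n = 37, all from the same 2 libraries).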
